A study of Mus musculus with 3 samples.

Results

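The genes described are interferon-stimulated genes outside the Ifitm family, a list of 54 gene names whose rule uses no measured value. The count matrix held 53 of the 54 among its 27998 genes, and Mx2 was the name without a match. They were read in single cells of mouse meninges, the membranes around the brain, from mice left in the home cage (HC) and from mice put through chronic social defeat (CSD), repeated attacks by a dominant male. All mice were male C57BL/6J, 10 to 12 weeks old. There were 2 HC libraries and 1 CSD library, each a pool of cells from 4 mice, and the CSD mice were taken after 14 days of defeat and had been picked for their behaviour, as susceptible in urine scent marking and open field tests per the labels, and on social interaction too per the study. The study asked how this stress changes meningeal immune cells and whether type I interferon has a part in it, and the comparison below asks how the interferon-stimulated genes stood in each cell type with and without defeat.

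Type I interferons are secreted proteins that bind the receptor chains Ifnar1 and Ifnar2. Signalling through the kinases Jak1 and Tyk2 then leads to a complex holding Stat2 and Irf9 that binds the interferon-stimulated response element in gene promoters. The genes switched on this way act against viruses: IFIT proteins bind foreign RNA, the OAS enzymes make a signal that starts RNA decay, Isg15 is a small ubiquitin-like tag, and Rsad2 makes a nucleotide that halts viral polymerases. Neutrophils, the short-lived phagocytes made in bone marrow, and monocytes and macrophages can all carry the receptor. By flow cytometry the study found most bone marrow neutrophils negative for it.

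The core of the response element, GAAANNGAAA, was searched on both strands in the RefSeq promoters, from 250 bases before to 50 bases after each gene start. Of the 40 members with a promoter entry 21 held it (52.5%), against 3.99% of all 27025 genes, and the other 13 measured members had no entry. The 6 stretches below, each of 60 bases from build GRCm38.p6, lie before the start of genes with the core that the values below turn on. Bases of the core are in capitals. Other genes that the values turn on lack a match: Slfn1, Slfn2, Irf7 and Irf9 had an entry without the core. Rtp4 and Ifi27l2a had either no core or no entry. In Ifit3 and Trim30a the core lies on the opposite strand and is read as its reverse complement, and overlapping copies make a longer run of capitals in Isg15, Oas1a and Bst2. A further copy in Ifit3 begins before its stretch, whose opening bases are the end of that copy and stand in lower case. A match is a run of letters in this window and not a measured binding site.
Isg15, chr4:156200855-156200914, minus strand: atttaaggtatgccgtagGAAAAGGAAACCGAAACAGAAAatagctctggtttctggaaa
Ifit3, chr19:34583377-34583436, plus strand: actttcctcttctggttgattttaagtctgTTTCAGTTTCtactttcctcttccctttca
Oas1a, chr5:120907526-120907585, minus strand: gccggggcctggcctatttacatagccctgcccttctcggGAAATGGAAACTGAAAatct
Oas3, chr5:120777705-120777764, minus strand: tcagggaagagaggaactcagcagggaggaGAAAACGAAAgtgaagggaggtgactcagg
Trim30a, chr7:104465200-104465259, minus strand: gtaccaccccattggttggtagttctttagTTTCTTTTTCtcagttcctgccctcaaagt
Bst2, chr8:71537567-71537626, minus strand: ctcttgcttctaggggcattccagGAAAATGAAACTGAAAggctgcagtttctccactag

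Each library gave 8814690 to 10206236 unique molecular identifiers (UMIs, single captured RNA molecules) and 1702 to 2756 cells, 7057 in all, with 34 cells whose barcode sequence occurred in a pair of libraries. HC replicate 2 stood apart: 24.1% of its UMIs lay in droplets without a cell (at most 100 UMIs), against 7.87% in HC replicate 1 and 5.48% in CSD replicate 1. With 1 CSD pool, group and chip lane cannot be told apart, and every p below rests on the spread between the HC pools only. The tests draw each gene's spread toward that of other genes, and how strongly they did so differed by cell type. A like difference and SE can thus give unlike p-values in different types, and calls are not comparable between types. Cells fell into 25 clusters, of which 20 were named from marker genes as 16 types written "-like", and they included olfactory neuron-like and erythroid-like cells that came with the dissected tissue. The members had been left out of the genes used to cluster.

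The summed level of the 53 members, as UMIs per 1000000 UMIs of the same cell type and library (CPM), ran from 1121 ± 172 in olfactory neuron-like cells to 6087 ± 299.9 in plasmacytoid dendritic cell (pDC)-like cells (SD, n = 3 libraries here and for all levels by type). Plasmacytoid dendritic cells are the immune system's main makers of type I interferon. Monocyte-like cells came next at 5679 ± 396, and border macrophage-like cells, which line the brain's surfaces, at 5497 ± 805. The library ranges of these 3 types overlapped, so their order is not fixed by these data. Mature B-like, T-like and classical dendritic cell (cDC)-like cells lay at 4421 ± 406, 4382 ± 225 and 4031 ± 508, which overlapped one another too. Neutrophil-like cells held 2414 ± 109, below every library of the monocyte-like and border macrophage-like cells, and microglia-like cells 2569 ± 64.4. Endothelial-like cells, at 4861 ± 1372, were only 43 in all. Droplets without a cell, which hold RNA released into the suspension, carried 3122 ± 77.8.

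**Figure D1:**
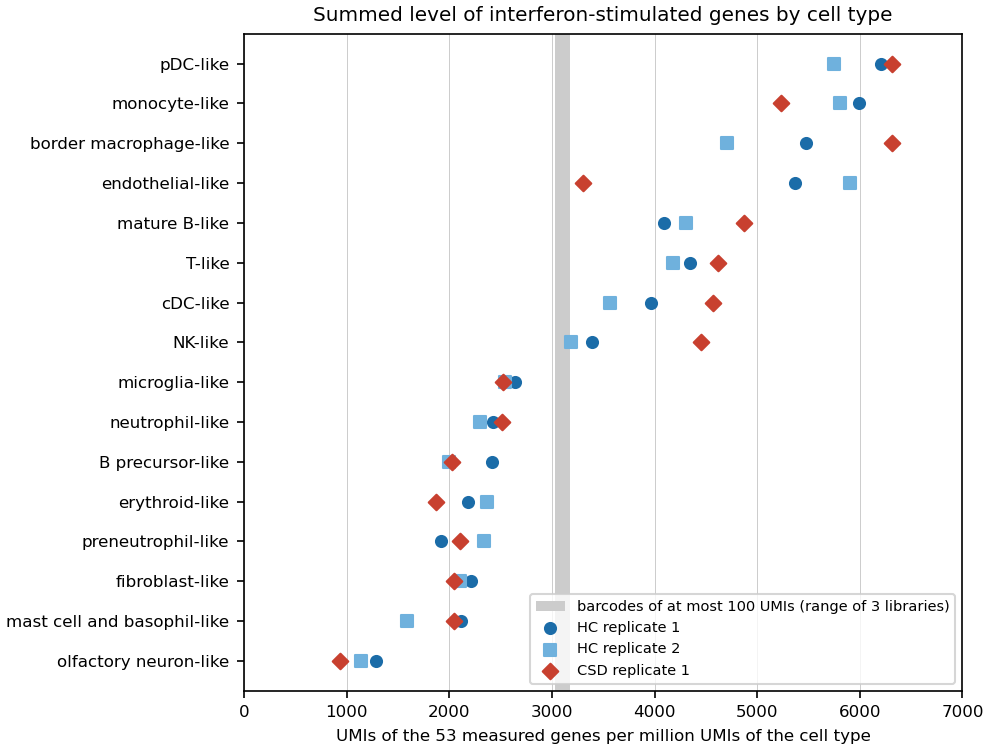
Summed level of the 53 members in each cell type (horizontal axis, CPM), 1 point per library. The pDC-like, monocyte-like and border macrophage-like cells stand highest, and the neutrophil-like cells lie below the level of droplets without a cell (3122).

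The droplets without a cell give the background against which each member can be read. Of the 47 members with at least 20 UMIs in border macrophage-like cells, 37 were above it in all 3 libraries and 2 below, with a median ratio of 2.16. In monocyte-like cells 22 of 45 were above it in all 3 and 1 below, with a median ratio of 1.47. In neutrophil-like cells only 6 of 46 were above it in all 3 and 28 were below (median ratio 0.619), and in preneutrophil-like cells, the dividing bone-marrow precursors, 0 of 36 were above and 23 below. The 6 members above it in neutrophil-like cells were thus a small part of the list. The same shares over all genes were not computed, so whether these counts are particular to the members is not known.

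Oas2 (54 UMIs over all cells), Irgm1 (110), Iigp1 (65) and Ifi44 (40) reached 20 UMIs in no type. Border macrophage-like cells had the highest mean level of 18 of the 49 members that reached 20 UMIs in some type. The range over libraries lay clear of the next type's for 15 of 48 members with a next type to compare. Neither count was set beside its share over all genes. Bst2, which tethers budding virus to the cell surface, was the clearest pDC-like gene at 2008 ± 143 CPM, against 639.9 ± 83.5 in border macrophage-like cells. Oasl2, an OAS-related protein, led in border macrophage-like cells at 92.5 ± 5.51 against 38.8 ± 11.7 in monocyte-like cells. Rtp4, a chaperone of receptors, also led there at 132 ± 40.2, against 56.4 ± 3.89 in cDC-like cells. Ifi27l2a, a small membrane protein, led in monocyte-like cells at 1359 ± 330.3 against 881 ± 155. Slfn1, a Schlafen protein known from T cell growth arrest, led in neutrophil-like cells at 208 ± 31.4 against 121 ± 17.7 in monocyte-like cells. Each of these 5 genes had separate ranges, and they show that the list is spread over several cell types.

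Other members had their highest mean in lymphoid, erythroid, fibroblast-like, cDC-like or microglia-like cells. Epsti1 was highest in NK-like cells at 246 ± 4.68 and next in T-like cells at 221 ± 14.5, without overlap. Ifi47, an interferon-inducible GTPase, reached 93.2 ± 22.8 in T-like and 96.6 ± 13.3 in NK-like cells, whose ranges overlapped. Phf11b was highest in cDC-like cells at 121 ± 5.72 against 78.9 ± 15.6 in border macrophage-like cells. Epsti1 and Ifi47 were thus highest in lymphoid cells and Phf11b in dendritic cells. Erythroid-like cells, 62 in all, led for Isg15 (495 ± 161), Isg20, an RNA exonuclease (359.9 ± 67.2), and Rsad2 (238 ± 56.1), each clear of the next type among those with at least 20 UMIs of the gene. Gbp2, a guanylate-binding protein, stood at 57.1 ± 14.5 in fibroblast-like cells, above 28.8 ± 11.3 in T-like cells. Lgals3bp, a secreted glycoprotein, stood at 109 ± 17.5 in microglia-like cells and did not separate from 101 ± 12.5 in border macrophage-like cells.

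For the remaining types, the member with the highest ratio to the mean of the other types is described here. It was Ifi203, of the DNA-binding interferon-inducible p200 family, in mature B-like cells (185 ± 50.2) and in B precursor-like cells (85.0 ± 18.9). It was Ifi204, a DNA sensor of the same family, in monocyte-like cells (133 ± 24.4), though the mean in border macrophage-like cells was higher (156 ± 22.4). Ly6e, a surface protein known for restricting coronavirus entry, was that member in the 43 endothelial-like cells (1562 ± 400.0) and had its highest mean in mature B-like cells at 2187 ± 220.5. Of these members, neither Gbp7 in mast cell and basophil-like cells (24.4 ± 6.16) nor Slfn2 in preneutrophil-like cells (378 ± 61.2) was above the empty droplets in all 3 libraries. Cmpk2, a mitochondrial nucleotide kinase beside Rsad2 on chromosome 12, had its highest mean in olfactory neuron-like cells at 35.9 ± 14.9, a range not separate from that of neutrophil-like cells.

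**Figure D2:**
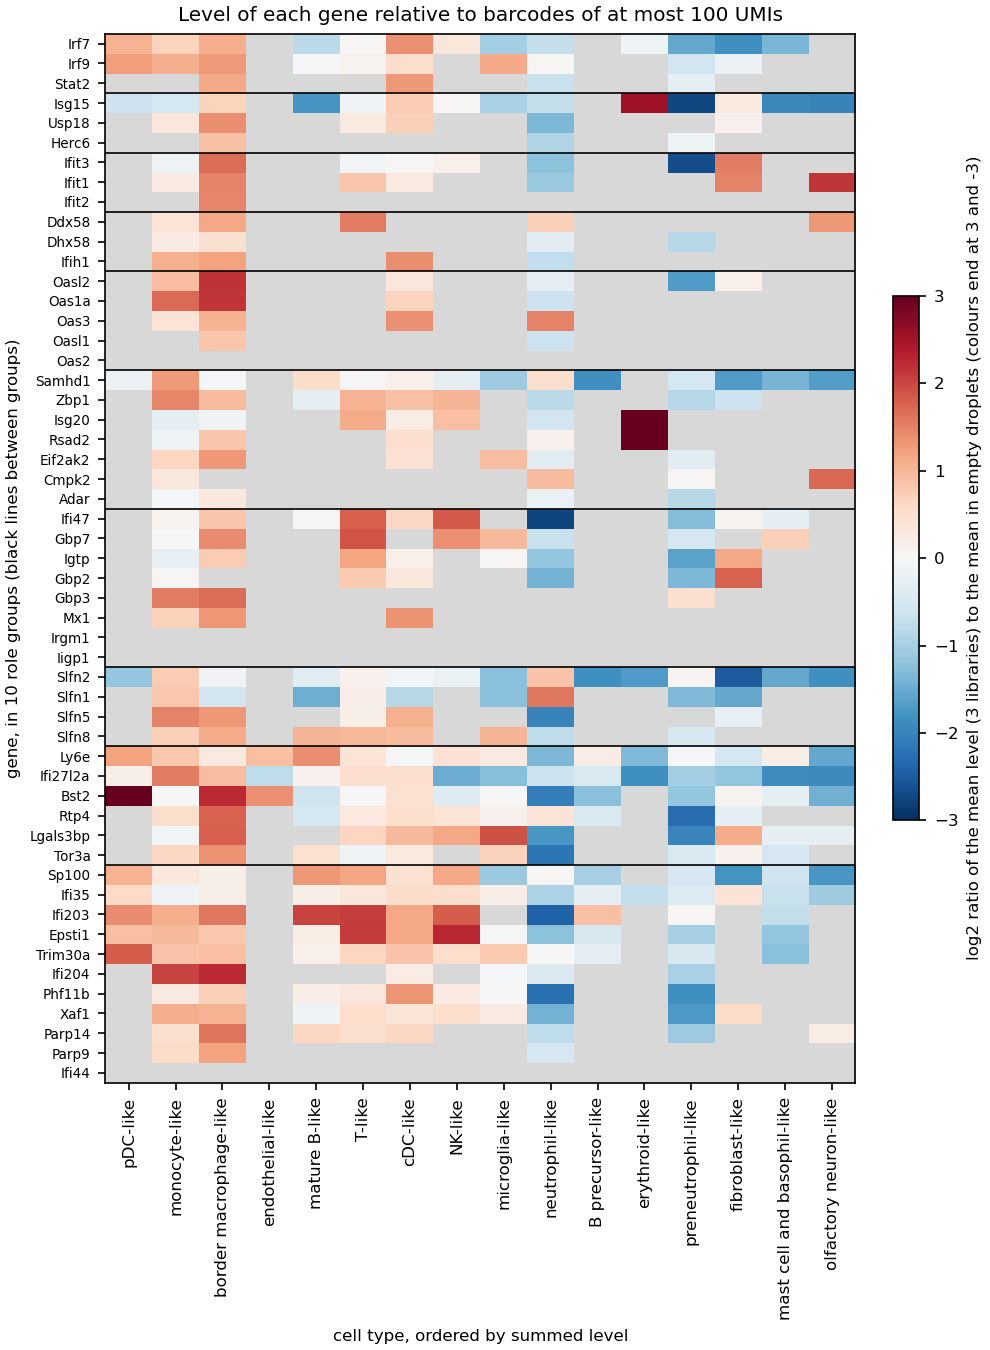
Level of each member (rows) in each cell type (columns), as the log2 ratio of its mean over 3 libraries to its mean in droplets without a cell, with colours ending at 3 and -3 and grey where the type held fewer than 20 UMIs of the gene. Most rows are red in border macrophage-like cells (37 of 47 above the droplets in all libraries) and most are blue in neutrophil-like cells (28 of 46 below), and Bst2 in pDC-like cells and Isg20 and Rsad2 in erythroid-like cells reach the end of the scale.

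The 10 role groups were carried by unequal UMI totals. By group, the member with the most UMIs over all cells was Ly6e for membrane and secreted proteins (19894), Slfn2 for the Schlafen family (9681), Samhd1, which removes nucleotides from infected cells (3221), and Sp100, a nuclear body protein (1821). The other groups were led by Isg15 (1471 UMIs), Irf7, the factor that amplifies interferon production (1072), Ifit3 (671), Ifi47 (514), Oasl2 (479) and Ddx58, the RIG-I sensor of viral RNA (313).

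In neutrophil-like cells, which numbered 767 and 538 in the HC libraries and 1302 in the CSD library, no member passed the test. CSD and HC were compared on UMIs summed per library with the quasi-likelihood test of edgeR, with Benjamini-Hochberg adjustment over all genes tested, and a positive log2 difference means higher in CSD. The test called 0 of 7851 genes (0 percent) at an adjusted p of 0.05, and 605 genes (7.71%) had an unadjusted p under 0.05. Of the 46 members tested 0 were called and 9 had an unadjusted p under 0.05, 8 of them higher in CSD, and DESeq2 called 0 members too. The CSD value was higher for 31 members and lower for 15, with a median log2 difference of 0.21, against -0.03 over all genes. It lay above both HC values for 25 members (54.3%), against 33.4% of all genes, below both for 8, and between them for 13. Under 4 of the other settings tried, edgeR called 1 to 4 members here (Rtp4 in each, with Oas3, Slfn1 or Isg15). Those settings called 1.25% to 2.94% of all genes.

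The Schlafen proteins, regulators of growth and of tRNA, had the most UMIs in neutrophil-like cells. Levels in the tests are CPM scaled by edgeR's TMM factors. Slfn2 stood at 661 and 519 in the HC libraries and 806 in the CSD library (log2 difference 0.45, SE 0.19, edgeR adjusted p = 0.653). Slfn1 stood at 184 and 181 in HC and 269.9 in CSD (0.56, SE 0.12, edgeR adjusted p = 0.642). Both CSD values were above both HC values, though neither passed the test. Slfn5 was at 4.87, 4.33 and 7.34, and Slfn8 went the other way at 8.66, 6.5 and 5.42.

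The OAS family, which includes the OAS-like genes, had 4 members tested. The CSD value was above both HC values for all 4 (Oas1a, Oas3, Oasl1, Oasl2), with a median log2 difference of 0.77. Oas3 was at 21.1 and 12.3 in HC and 34.1 in CSD, so the HC pair was itself uneven. Oas1a was at 6.49 and 5.06 in HC and 13.4 in CSD, from 12, 7 and 42 UMIs (log2 difference 1.19, SE 0.34). Oasl2 was at 17.9, 11.6 and 22.0. The lowest edgeR adjusted p of any member in these cells was 0.642, which the 9 members with an unadjusted p under 0.05 share, Oas1a and Oas3 among them.

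Rtp4 was at 40.6 and 41.2 in the HC libraries and 75.6 in the CSD library (log2 difference 0.89, SE 0.16). Isg15 was at 46.0 and 43.3 in HC and 70.2 in CSD (0.65, SE 0.17). Zbp1, a sensor of Z-form nucleic acid, was at 15.1 and 17.3 against 29.4. These 3 genes had close HC values and a CSD value above both. Isg20 was at 15.1 and 13.7 against 28.7, and Trim30a, a ubiquitin ligase of the tripartite motif family, at 37.3 and 35.4 against 58.4. In the droplets without a cell Isg15 moved the same way, at 38.0, 77.9 and 148 TMM-scaled CPM, while the test there called 0 of 8773 genes (0 percent), with 422 at an unadjusted p under 0.05, and 0 of 48 members. The part of free RNA in the Isg15 values of cells was not tested by that comparison, but after its subtraction the neutrophil-like log2 difference of Isg15 was -0.28. Unscaled CPM in these droplets was also highest in CSD for Trim30a (38.5, 35.2 and 55.4), Isg20 (16.7, 24.9 and 41.1) and Zbp1 (27.0, 37.1 and 41.1). For Rtp4 it was lowest in CSD (45.0, 36.2 and 35.8). The part of free RNA in the values of these genes was not tested.

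Other members with many UMIs in neutrophil-like cells showed smaller differences than Rtp4, Isg15 or Trim30a. Ly6e was at 327 and 338 in HC and 322 in CSD, and Samhd1 at 183 and 202 against 178, so both CSD values lay a little below both HC values. Ifi27l2a was at 339 and 224 against 350.0, Sp100 at 61.1 and 80.2 against 80.1, and Ifi35 at 40.03 and 43.3 against 49.1. Irf7 was at 27.6 and 34.7 against 36.1, and Irf9, the DNA-binding part of the interferon complex, at 29.8 and 25.99 against 26.8. The log2 differences of these 7 genes were between -0.11 and 0.31, and Sp100 and Irf9 lay within their HC pair. Bst2 (38.95, 25.3 and 33.5), Ifi204 (30.3, 20.2 and 22.3) and Epsti1 (25.97, 19.5 and 20.4) lay between their HC values in CSD.

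Ifit3, Ifit1, Rsad2 and Cmpk2, which interferon induces strongly, lay at 24.6 TMM-scaled CPM or less in neutrophil-like cells of each library. Ifit3 was at 14.1 and 24.6 in HC and 13.7 in CSD, so the CSD value was below both, and Ifit1 was at 4.33 and 6.5 against 9.89. Rsad2 was at 17.9 and 14.4 against 20.7, and Cmpk2 at 24.3 and 18.8 against 19.8. Of the RNA sensors, Ddx58 was at 14.1, 14.4 and 15.6 and Dhx58 at 9.20, 11.6 and 15.95 (low UMI counts of 16 to 50). Eif2ak2, the kinase that stops translation on sensing RNA, was at 10.3, 11.6 and 13.7. Lgals3bp, named after its values were seen, was the 1 member lower in CSD with an unadjusted p under 0.05, at 11.4 and 9.39 against 4.79 (15 UMIs in CSD).

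Neutrophil-like cells were 3 clusters, led by Ltf, Camp and Ngp (granule proteins of immature cells), by Retnlg, Cxcr2 and Mmp8, and by Il1b and Cxcl2. The summed member level was higher in that order in each library, from 1777, 1656 and 1711 CPM (HC replicate 1, HC replicate 2, CSD replicate 1) through 2978, 2796 and 3408 to 4725, 4969 and 5531. In the first cluster the CSD value lay between the HC values, and in the other two above both. Slfn1 went from 120, 129.7 and 158 CPM through 283, 268 and 324 to 329.7, 420.2 and 610.2. Rtp4 was at 20.7, 22.4 and 22.8 in the first cluster, at 54.9, 51.6 and 129 in the second and at 119, 153 and 210.4 in the third. In the first cluster the 3 libraries were thus close for Rtp4, and in the others CSD stood above both HC libraries. Isg15 was at 31.1, 16.5 and 33.5, at 63.6, 55.0 and 108, and at 91.6, 200.1 and 144, where CSD fell between the HC values in the third cluster. The first cluster made up 39.1%, 42.2% and 41.2% of neutrophil-like cells, the second 34.0%, 31.97% and 36.7%, and the third 26.9%, 25.8% and 22.1%. No test was run between clusters, whose median UMIs per cell were 3507, 1663 and 994.

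**Figure D3:**
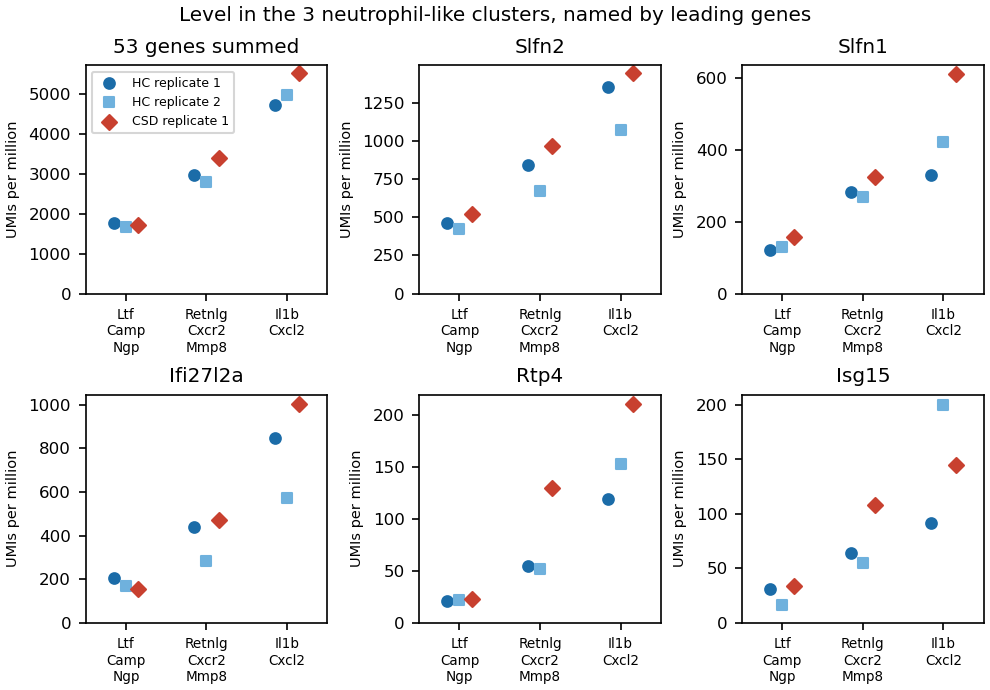
Level in CPM of members in the 3 neutrophil-like clusters, 1 point per library. Levels are higher in the later clusters than in the first, and Rtp4 in the second cluster stands at 129 in CSD against 54.9 and 51.6 in HC.

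In monocyte-like cells (141 and 97 in the HC libraries, 138 in CSD) Ifit3 fell after CSD and was the only member past the test. Ifit3 (chr19:34583531-34588731, plus strand, GRCm38) was at 62.5 and 44.7 TMM-scaled CPM in HC and 7.23 in CSD, from 40, 23 and 5 UMIs, and its log2 difference was -2.87 (SE 0.54, edgeR adjusted p = 2.2e-05). The test called 85 of 6090 genes (1.4 percent) and 1 of the 45 members tested. DESeq2 did not call it (adjusted p = 1.00), nor did edgeR after free RNA was subtracted (adjusted p = 0.517). Its near-identical copy Ifit3b had 4, 0 and 3 UMIs in these cells and 88 in all. Reads that match both copies were not measured, so the level of Ifit3 is uncertain to that extent.

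The other members mostly had lower values in CSD too, without passing the test. Of 45 members 36 were lower and 9 higher, with a median log2 difference of -0.47 against -0.02 over all genes. The CSD value lay below both HC values for 26 (57.8%), against 35.0% of all genes, and above both for 6. All 8 members with an unadjusted p under 0.05 (17.8%, against 9.26% of all genes) were lower in CSD. Without HC replicate 1 the median was -0.24 and 17 of 45 were higher, and after thinning each cell to 500 UMIs, which left 11 members to test, the median was 0.032.

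By role, the dynamin-like, GBP and IRG GTPases were lower in CSD for 6 of 6 tested (median log2 difference -1.03). The OAS family was lower for 3 of 3 (-0.76) and the RNA sensors for 3 of 3. The ISG15 system, the IFIT proteins and the transcription factors were each lower for 2 of 2. The Schlafen genes were the exception, with 3 of 4 higher (median 0.11). Irf7 was at 105 and 103 in HC and 56.4 in CSD (log2 difference -0.88, SE 0.29, edgeR adjusted p = 0.138). Epsti1 was at 120.3 and 120.6 against 67.9 (-0.82, SE 0.28, edgeR adjusted p = 0.147). Phf11b, chosen after its values were seen, was at 70.3 and 70.04 against 36.1, and Oas1a at 51.6 and 48.6 against 23.1. These 4 genes had tight HC pairs and a CSD value well under both.

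Other members with many UMIs in monocyte-like cells went in both directions, without passing the test. Ly6e was at 1378 and 1488 in HC and 1605 in CSD, Slfn2 at 572 and 632 against 666, and Sp100 at 81.2 and 91.4 against 101. Ifi203 was at 95.3 and 91.4 against 111, and Zbp1 at 82.8 and 101 against 114. For these 5 the CSD value was above both HC values. Ifi27l2a was at 1846 and 1167 against 1184, Slfn1 at 108 and 134 against 127, Ifi35 at 96.9 and 66.1 against 72.3, and Trim30a at 85.9 and 75.9 against 79.5. These 4 lay within their HC pair. Bst2 was at 144 and 169 against 103, Samhd1 at 331 and 369.6 against 270.2, Ifi204 at 170.3 and 123 against 117, and Isg15 at 68.7 and 66.1 against 46.2. The share of RNA in monocyte-like cells estimated as free, from mature B cell markers there relative to empty droplets, was 43.0%, 38.1% and 30.9% in HC replicate 1, HC replicate 2 and CSD, and in neutrophil-like cells 34.0%, 33.1% and 29.7%. Its part in the lower values was not tested as such, and after subtraction the median over 36 members was -0.68.

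The effect of CSD differed between neutrophil-like and monocyte-like cells for 4 members by the interaction test, fitted in edgeR on the 6 sums with library as a block. All 4 were relatively higher in neutrophil-like cells. The test called 64 of 9010 genes (0.71 percent) and 4 of 51 members. Ifi27l2a (chr12:103442167-103443680, minus strand) differed by 0.61 on the log2 scale (SE 0.14, edgeR adjusted p = 0.00416), Oas1a (chr5:120896256-120907521, minus strand) by 2.25 (SE 0.55, adjusted p = 0.011), Rtp4 (chr16:23520291-23614222, plus strand) by 1.33 (SE 0.35, adjusted p = 0.0229) and Ifit3 by 2.40 (SE 0.65, adjusted p = 0.0324). For Oas1a and Rtp4 the CSD value was above both HC values in neutrophil-like cells and below both in monocyte-like cells, for Rtp4 only just (46.2 against 79.7 and 46.7). For Ifit3 it was below both in each type, and further below in monocyte-like cells. For Ifi27l2a it was above both in neutrophil-like cells, though only just above HC replicate 1. That holds after TMM scaling only (factors 1.02 and 1.08 in HC and 0.908 in CSD), and without it CSD lay between the HC values. In monocyte-like cells the Ifi27l2a value of CSD lay inside the HC pair, close to HC replicate 2.

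Of the 51 members 40 had a positive interaction, with a median of 0.48 against -0.05 over all genes. The unadjusted p was under 0.05 for 10 (19.6%, against 8.70% of all genes), all positive. DESeq2 called 0 of the 51, and thinning, free RNA subtraction and finer clustering each called 0 as well. Ifit3 and Rtp4 turned to -0.73 and -0.058 after thinning, which left 2 to 6 UMIs of either gene per library in monocyte-like cells. Oas1a has related genes, Oas1g and Oas1c, with 62 and 47 UMIs in all cells. How alike their sequences are was not measured.

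**Figure D4:**
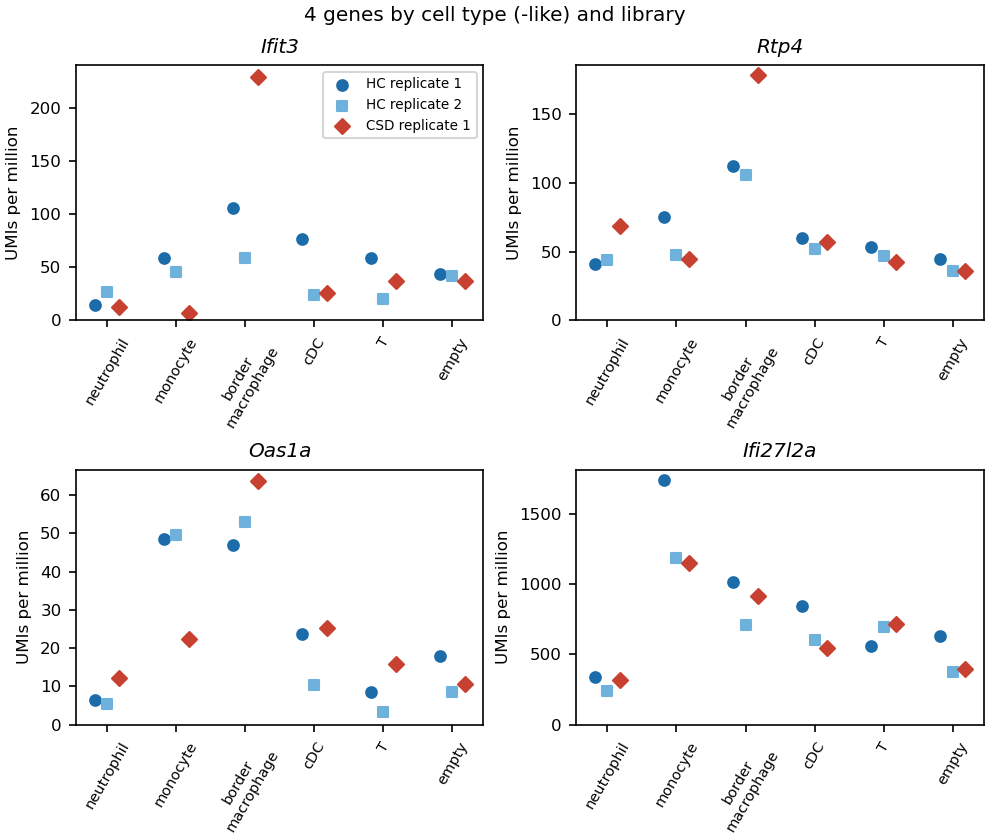
Level in CPM of Ifit3, Rtp4, Oas1a and Ifi27l2a in 5 cell types and in droplets without a cell (empty), 1 point per library and without TMM scaling. Oas1a and Rtp4 stand above both HC libraries in neutrophil-like cells of CSD, and Ifit3 in monocyte-like cells of CSD rests on 5 UMIs.

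In border macrophage-like cells, 318 and 60 in the HC libraries and 128 in CSD, most members had higher values in CSD and none passed the test. Ifit3 was at 107 and 60.3 in HC and 244 in CSD (log2 difference 1.39, SE 0.36, edgeR adjusted p = 0.0937). Isg15 was at 117 and 72.4 against 234 (1.19, SE 0.36, edgeR adjusted p = 0.285). Ifit1 was at 27.8 and 30.2 against 71.2, and Rtp4 at 113 and 109 against 189.8, all named after their values were seen. Each CSD value was above both HC values. The test called 7 of 5778 genes (0.121 percent) and 0 of 47 members, and DESeq2 called 0 members. An unadjusted p under 0.05 was reached by 4 members (8.51%, against 4.10% of all genes). Of the 47, 38 were higher (median log2 difference 0.42, against -0.01 over all genes), and 34 lay above both HC values (72.3%, against 32.9% of all genes). The IFIT group was higher for 3 of 3 (median 1.32) and the OAS family for 4 of 4 (0.70). Ly6e at 1105, 953 and 1084, Ifi27l2a at 1028, 729.8 and 976, and Bst2 at 609.5, 597 and 783 had the most UMIs. Ifit3 rested on 10 UMIs and Isg15 on 12 in HC replicate 2. Free RNA was estimated at 45.8%, 28.3% and 52.9%, in the same order over the libraries as the summed member level, and its part was not tested. After subtraction 38 of 40 members were higher.

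In cDC-like cells the test called 0 of 5190 genes (0 percent) by edgeR, with 200 at an unadjusted p under 0.05, and 0 of 39 members, of which 28 were higher in CSD (median 0.44). Ly6e was at 799 and 647 against 1112, Ifi27l2a at 894 and 608 against 573, and Slfn2 at 348 and 286 against 433. Irf7, named after its values were seen, was at 108 and 102 against 226. The 4 members with an unadjusted p under 0.05 were all higher.

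In NK-like cells edgeR called 0 of 2784 genes (0 percent), 136 having an unadjusted p under 0.05, and 16 of 21 members were higher (median 0.39). Ly6e was at 1196 and 1055 against 1523, Slfn2 at 260.3 and 329 against 447, and Epsti1 at 273 and 271 against 277. In T-like cells it called 0 of 4504 genes (0 percent), with 197 and none of the 32 members at an unadjusted p under 0.05, and 17 members were higher (median 0.05). Ly6e was at 1106 and 1049 against 1339, Ifi27l2a at 609 and 711 against 748, and Slfn2 at 526 and 349 against 373. The difference between these types was not tested.

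In mature B-like cells 15 of 4292 genes were called (0.349 percent) and 0 of 22 members, 12 of them higher. For 3 members (13.6%) the unadjusted p was under 0.05, against 6.13% of all genes. Ly6e was at 2162 and 2134 against 2641, Ifi27l2a at 548 and 479 against 579, and Slfn2 at 262 and 263 against 369.6. In B precursor-like cells 43 of 4243 genes were called (1.01 percent) and 0 of 11 members, 6 of them higher. There 3 members (27.3%) had an unadjusted p under 0.05, against 6.55% of all genes. Ly6e was at 1062, 1002 and 1033, Ifi27l2a at 523, 291 and 276, and Slfn2 at 83.0, 92.9 and 145. The B lineage showed no common direction, with medians of 0.06 and 0.00.

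In microglia-like cells 11 of 4583 genes were called (0.24 percent) and 0 of 23 members, 12 of them higher. For 4 members (17.4%) the unadjusted p was under 0.05, against 5.69% of all genes. Ly6e was at 1074, 1114 and 1002, Ifi27l2a at 287, 184 and 145, and Slfn2 at 151, 109 and 223. In preneutrophil-like cells 73 of 7693 genes were called (0.949 percent) and 0 of 36 members, 13 of them higher. There 2 members (5.56%) had an unadjusted p under 0.05, against 5.26% of all genes. Ly6e was at 748, 871 and 812, Slfn2 at 327, 363 and 456, and Ifi27l2a at 260.5, 208 and 231. In olfactory neuron-like cells 19 of 5840 genes were called (0.325 percent) and 0 of 13 members, 2 of them higher. There 2 members (15.4%) had an unadjusted p under 0.05, against 4.81% of all genes. Ly6e was at 284, 357 and 277, Ifi27l2a at 224, 77.2 and 97.1, and Slfn2 at 112, 86.9 and 123. DESeq2 called 0 members in each of the 11 types tested, and the other 5 types had under 40 cells in some library.

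Interferon responses are often held by few cells, so 10 strongly inducible members (Isg15, Ifit1, Ifit2, Ifit3, Rsad2, Usp18, Irf7, Cmpk2, Oasl1, Mx1) were also counted per cell after thinning to 500 UMIs. The share of neutrophil-like cells with at least 1 of the 10 genes was 8.87%, 7.62% and 8.53%, with overlapping exact 95% Clopper-Pearson intervals (6.95 to 11.1%, 5.52 to 10.2% and 7.06 to 10.2%), which cover counting error only. Before thinning the shares were 27.1%, 24.3% and 26.3%, at median depths of 1908, 1814 and 2182 UMIs. No difference was detectable in neutrophil-like cells at this depth. Preneutrophil-like cells, where 0 members stood above empty droplets in all libraries, gave 4.27%, 1.96% and 4.35% thinned at median depths of 10610 to 11347 UMIs.

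In monocyte-like cells the thinned share was 14.2%, 16.5% and 13.04%, also with overlapping intervals. In border macrophage-like cells it was 15.1% (11.3 to 19.5%), 8.33% (2.76 to 18.4%) and 22.7% (15.7 to 30.9%), so the CSD interval overlapped both HC intervals. With 2 or more of the genes the border macrophage-like shares were 3.46%, 0 of 60 cells, which allows a share of up to 5% when 3 cells are taken as the limit of a count of 0 (exact interval up to 5.96%), and 9.38%. Before thinning, 151 of 318, 24 of 60 and 51 of 128 cells had at least 1 of the genes (39.8% in CSD), with CSD lowest, at median depths of 2981, 2741 and 2281 UMIs, so no order is read from it.

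Cells with UMIs of at least 5 of the 10 genes, counted without thinning, were 75 of 7057 (1.06%) and held 1229 of the 5001 UMIs of these genes (24.6%). Of them 25 were border macrophage-like (4.94% of that type, with 46.7% of its UMIs of these genes), 12 cDC-like, 8 monocyte-like, 7 T-like and 5 neutrophil-like (0.192% of 2607). They came from both groups: the border macrophage-like ones were 13, 2 and 10 in HC replicate 1, HC replicate 2 and CSD, and the monocyte-like ones 5, 2 and 1. Those 13, 2 and 10 cells held 44.6%, 24.6% and 56.0% of the UMIs of these genes in their type, in that order. The 5, 2 and 1 monocyte-like cells held 38.6%, 28.75% and 15.2%. Ifit3, Isg15 and Ifit1, whose border macrophage-like levels are given above, are among the 10 genes. Ifit3 was also the member called in monocyte-like cells, and how much of it these few cells held was not tested. Of the 75, 4 were marked as doublets, droplets with more than 1 cell, and the marking took 5% of all cells of each library.

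Of 36 other genes of the interferon pathway only 8 to 20 per type had the UMIs needed for a test. Of those tested 0 were called by edgeR in any of the 11 types, and DESeq2 called 0 as well. With edgeR 0 to 5 per type had an unadjusted p under 0.05. No UMI of Ifna1, Ifna2, Ifna4, Ifna5, Ifna11, Ifna13, Ifnab, Ifnk or Ifne was counted, and Ifnb1 had 3, all in HC replicate 1. The type II interferon Ifng had 284 UMIs and was highest in NK-like cells at 179.8 ± 21.4 CPM. Of the type I receptor chains, Ifnar1 was at 10.8, 12.997 and 11.8 TMM-scaled CPM in neutrophil-like cells (log2 difference 0.00) and Ifnar2 at 33.5, 56.3 and 52.96 (0.26). The type II receptor chains in monocyte-like cells were at 334, 389 and 237 for Ifngr1 and at 85.9, 105 and 57.8 for Ifngr2, both with CSD under both HC values and neither called. In neutrophil-like cells 11 of the 20 pathway genes tested were higher in CSD, and in monocyte-like cells 3 of 16.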

How the data were processed

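Per the labels and the study's methods, meningeal cells were digested with collagenase D, sorted as live nucleated cells (negative for DAPI, positive for DRAQ5), captured with 10x 3′ v2 chemistry, 1 chip lane per pool, and processed with Cell Ranger 2 on mm10 per the submitters' processing notes. A second CSD pool was lost at encapsulation. The authors deposited raw UMI counts per gene for every barcode, and these counts were used as deposited. Each pool held 4 mice, so p-values measure the spread between pools and not between mice.

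Barcodes with at least 500 UMIs, 174 to 4548 genes and under 8.3% mitochondrial UMIs were kept. The rank test over cells of the study was not repeated. Cells were clustered in scanpy 1.11.5 (3000 variable genes without the members, the pathway list and other interferon genes, 50 components, mutual-nearest-neighbour correction, Leiden resolution 1), and clusters were named from marker lists. Doublets were marked (5% of each library) but kept. UMIs were summed per library and type. With at least 40 cells per library and genes of at least 20 UMIs over the 3 libraries, edgeR 4.0.16 (TMM, glmQLFit, glmQLFTest, 1 residual degree of freedom, the lone CSD pool taken to vary like the HC pools) gave 2-sided tests with Benjamini-Hochberg adjustment at 0.05. The scripts were tested on simulated counts. Alternatives were DESeq2 1.42.0, other gene filters, doublets removed, other clusterings, 1000 UMIs as the minimum, thinning to 500 UMIs, subtraction of free RNA and leaving out either HC pool. Shares have exact intervals.

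Named were the 25 members with the most UMIs in neutrophil-like cells, 15 in monocyte-like cells, 3 in each other type, every member past the threshold and the leading member of each role and cell type; of the pathway list, the receptors and the interferons, and 1 further gene that is not reported here. The members, lists and tests were chosen with earlier results of these data known. Gene coordinates are from GENCODE on GRCm38 and promoter sequences from RefSeq on GRCm38.p6.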

Additional observations from a re-analysis of the deposited data

Results flagged for a closer look

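By the interaction term of the edgeR fit, 4 members differed in their CSD effect between neutrophil-like and monocyte-like cells, each relatively higher in neutrophil-like cells. The log2 differences of the effects were 0.61 for Ifi27l2a, 2.25 for Oas1a, 1.33 for Rtp4 and 2.40 for Ifit3. In monocyte-like cells Oas1a had 33 and 25 UMIs in the HC pools and 16 in the CSD pool, and Ifit3 had 40 and 23 against 5, so these differences rest on few molecules of a single CSD pool. With 2 HC pools and 1 CSD pool, no group could be checked for an outlying sample.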

How the results depend on the processing

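Of 185 summary values recomputed under the alternatives, 159 were counted as kept. Counts of calls were judged by how many times they changed. Medians, levels and shares were judged by whether their shift passed the spread between the HC pools. A kept value could thus change sign. The inducible share difference in neutrophil-like cells did so, from 0.28 percentage points to -0.34 without HC replicate 2. The cause of each change below was not tested, except where fewer genes or UMIs entered by construction. In neutrophil-like cells edgeR called 0 members, against 3 of 53 without a filter (Oas3, Slfn1, Rtp4) and 1 of 46 with doublets removed (Rtp4). It called 2 of 46 without mutual-nearest-neighbour correction (Oas3, Rtp4) and 4 of 46 with at least 1000 UMIs per cell (Isg15, Oas3, Slfn1, Rtp4). Over all genes these settings called 1.76%, 1.25%, 2.69% and 2.94%, in that order. In monocyte-like cells the 1 call (Ifit3) became 0 with DESeq2, with genes in more than 15% of cells (Ifit3 not tested), with thinning to 500 UMIs and with free RNA subtracted. At Leiden resolution 2 there was 1 call in border macrophage-like cells (Ifit3) and 1 in cDC-like cells (Herc6), against 0. With doublets removed there was 1 in mature B-like cells (Samhd1), against 0. Over all genes 0.223%, 0.644% and 0.247% were called there, in that order. The 4 interaction calls became 0 with DESeq2, Leiden resolution 2, thinning or free RNA subtracted. They became 1 of 6 with genes in more than 15% of cells (Ifi27l2a) and 1 of 53 without a filter (Oas1a). With doublets removed or without mutual-nearest-neighbour correction they became 2 (Oas1a, Ifi27l2a). Over all genes the last 4 settings called 9.84%, 0.163%, 0.507% and 0.683%, in that order.

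Thinning moved the monocyte-like median log2 difference from -0.47 to 0.032 over 11 members and turned Irf7 (0.032) and Bst2 (0.20) in monocyte-like cells, Ifi35 in neutrophil-like cells (-0.32) and Ly6e in NK-like cells (-0.075). It turned 9 interaction terms: Samhd1 -0.24, Ddx58 -0.74, Oasl2 -0.68, Oas3 -4.77, Irf7 -0.34, Slfn1 -0.37, Ifi35 -0.48, Rtp4 -0.058 and Ifit3 -0.73. Free RNA subtraction turned Isg15 in neutrophil-like cells (-0.28) and the interaction of Ly6e (0.52), and 1000 UMIs turned Slfn2 in preneutrophil-like cells (-0.024). The summed level, CSD minus HC mean, became 317 CPM in neutrophil-like, -1433 in monocyte-like and 2416 in border macrophage-like cells with free RNA subtracted, from 153, -667 and 1222, and -838 in monocyte-like cells without mutual-nearest-neighbour correction. The share with an inducible gene, CSD minus HC mean, became -9.26 and -3.90 percentage points in monocyte-like and border macrophage-like cells without thinning, from -2.30 and 10.9.

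Leaving out an HC pool leaves no residual degree of freedom, so these are values without a test. Medians ran from 0.18 to 0.29 in neutrophil-like, -0.54 to -0.24 in monocyte-like and 0.37 to 0.39 in border macrophage-like cells. Ifi27l2a ran from -0.64 to 0.020 in monocyte-like and from -1.16 to 0.30 in olfactory neuron-like cells. The inducible share difference ran from -0.34 to 0.90 percentage points in neutrophil-like cells, and in monocyte-like cells from -3.45 without HC replicate 1 to -1.14 without HC replicate 2. The summed-level difference in neutrophil-like cells ran from 89.1 CPM without HC replicate 2 to 217 without HC replicate 1.

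Calls over all genes moved by over 1.5 times: 0 in neutrophil-like cells against 6 to 259 under other settings, 85 in monocyte-like against 0 to 78, 64 interactions against 1 to 111, 7 in border macrophage-like against 0 to 16, 0 in cDC-like against up to 34, in NK-like against up to 27 and in T-like against up to 28, 15 in mature B-like against as few as 0, 43 in B precursor-like against 0 to 47, 11 in microglia-like against 0 to 21, 19 in olfactory neuron-like against 0 to 61 and 73 in preneutrophil-like against 1 to 68. Without mutual-nearest-neighbour correction no cDC-like type was found, so its value was not computed. No paired analysis was possible because the groups share only replicate number 1, and the pools are of different mice. Depth limits the sparse members: those with fewer than 20 UMIs in a type were not tested there.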
